A study of Homo sapiens with 18 samples.

Results

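The respiratory chain genes are the protein-coding genes for subunits of complexes I to V of the mitochondrial inner membrane, chosen by the first letters of their symbols: MT-ND, MT-CO, MT-CYB and MT-ATP for those on mitochondrial DNA, and NDUFA, NDUFB, NDUFC, NDUFS, NDUFV, SDHA to SDHD, UQCR, COX4 to COX8, ATP5F, ATP5M and ATP5P for those in the nucleus. Assembly factors named NDUFAF were left out. The rule found 102 of the 58051 genes in the tables, 13 on mitochondrial DNA and 89 in the nucleus. Both sets were followed across 6 groups of THP-1 cells, with 3 RNA sequencing libraries in each.

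Complexes I and II take electrons from NADH and succinate, complex III passes them to cytochrome c, and complex IV hands them to oxygen. Complex V, the ATP synthase, uses the proton gradient that complexes I, III and IV build. Complexes I, III, IV and V are assembled from subunits encoded in both genomes, while complex II is nuclear only. In macrophages, exposure to IL-4 over longer times is known for a metabolism that leans on oxidative phosphorylation.

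THP-1 is an established human monocytic leukaemia line. All cells carried a retroviral MSCV vector with GFP and were sorted for GFP. The vector was empty (MSCV-GFP-IRES, here IRES), or expressed MYC-tagged NIC1, the intracellular and active form of NOTCH1, or DNMAML, a dominant-negative fragment of Mastermind-like that blocks Notch-dependent transcription. Every group received PMA, a phorbol ester that makes THP-1 macrophage-like, at 5 ng/ml for 48 h. Cells were then left unstimulated or given IL-4 at 20 ng/ml for 3 h, so that no group was without PMA or without a vector. Each construct is an overexpressed transgene in 1 line. The libraries came from experiments numbered 1, 2 and 3, each once in every group. Nothing in the labels ties an experiment to a separate culture or transduction. The p-values therefore rest on library-to-library spread that may be technical.

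The libraries held 12410668 to 15099788 reads counted in genes. Macrophage markers summed to 761 to 1225 CPM, the scaled gene counts relative to the library total, and 8 of the 9 averaged over 1 CPM. ITGAM, an integrin of myeloid cells, lay at 189 to 422 CPM, while CD68, a lysosomal marker, averaged 0.813 in unstimulated IRES. Markers of other cell types were not all absent. Of 7 T cell markers 4 averaged over 1 CPM, with a sum of 111 to 231, mostly from CD4. CD3E and CD2 reached at most 0.304 and 0.146 CPM. Of 7 fibroblast and epithelium markers 4 averaged over 1 CPM, with a sum of 91.8 to 185. COL1A1 alone lay at 74.2 to 149 CPM. Of 5 B cell markers 2 averaged over 1 CPM, with a sum of 7.40 to 16.8, and of 5 erythroid and megakaryocyte markers 0 did. NOTCH1 averaged 188 CPM in IRES, 287 in NIC1 and 152 in DNMAML without IL-4, and MAML1, whose fragment DNMAML is, averaged 88.9, 81.9 and 131. Reads of these genes include those of the constructs. The IRES library of experiment 3 without IL-4 and the DNMAML library of experiment 3 with IL-4 had 23179 and 25322 genes with a read, against at most 21557 in the others. Many values that these 2 libraries turn or move by over 1.5 times are given with and without them, but not all, such as medians by complex.

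Some members share sequence with a neighbouring gene, which limits what a read can be counted for. The 46 bases that MT-ATP8 and MT-ATP6 share and the 7 that MT-ND4L and MT-ND4 share are printed to show how compactly the mitochondrial genes are packed (GRCh38, plus strand, GENCODE 29). Capitals mark the start codon of the second gene of each pair and the stop codon of the first.
MT-ATP8 and MT-ATP6, chrM:8527-8572: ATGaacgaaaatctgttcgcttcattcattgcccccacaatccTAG
MT-ND4L and MT-ND4, chrM:10760-10766: ATGcTAA
Among the nuclear members, 50 have at least 1 pseudogene named after them. Of all members, 8 have over 40% of their exonic bases inside another gene: NDUFA1, NDUFB8, NDUFB11, NDUFS7, COX6A2, ATP5ME, ATP5MF-PTCD1 and NDUFC2-KCTD14.

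Per kilobase of transcript, the mitochondrial messages were the most abundant of the chain. On the scale of RPKM (CPM per kilobase of transcript), averaged over the 18 libraries, the median level was 1379 for the 13 mitochondrial members and 76.1 for the 78 nuclear members that passed the filter on low counts. MT-CO2, a catalytic subunit of complex IV, was highest at 3079, followed by MT-ND4, a proton-pumping subunit of complex I, at 2754. MT-ND6, the complex I subunit that alone of the 13 is read from the other DNA strand, was lowest at 31.4, below the nuclear median. The order of genes on this scale depends on the transcript length used.

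Nuclear levels differed by complex. Each gene was given to a complex by its symbol alone, not by the known composition of the complexes. NDUFA4 and NDUFA4L2 thus count with complex I and COX7A2L with complex IV. Complex IV had the highest median of the nuclear sets, 188 RPKM over 11 genes, from COX7A2L at 44.6 to COX6B1 at 260.2. The 17 nuclear genes of complex V had a median of 120.1, with ATP5F1B, the catalytic beta subunit, at 279 and ATP5PO, a subunit of the stalk, at 33.9. Complex III had a median of 80.4 over 9 genes, led by the hinge protein gene UQCRH at 158.

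Complex I had a median of 64.4 RPKM over 37 nuclear genes, the highest being NDUFS5 at 266. The lowest tested gene placed there by its symbol was NDUFA4L2, a hypoxia-inducible relative of NDUFA4, at 1.74. Complex II had a median of 44.1 over 4 genes, from SDHD, a membrane anchor, at 38.7 to SDHC, the other anchor, at 195. UQCRHL, an intronless relative of UQCRH, was the lowest of all tested members at 0.313.

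**Figure D1:**
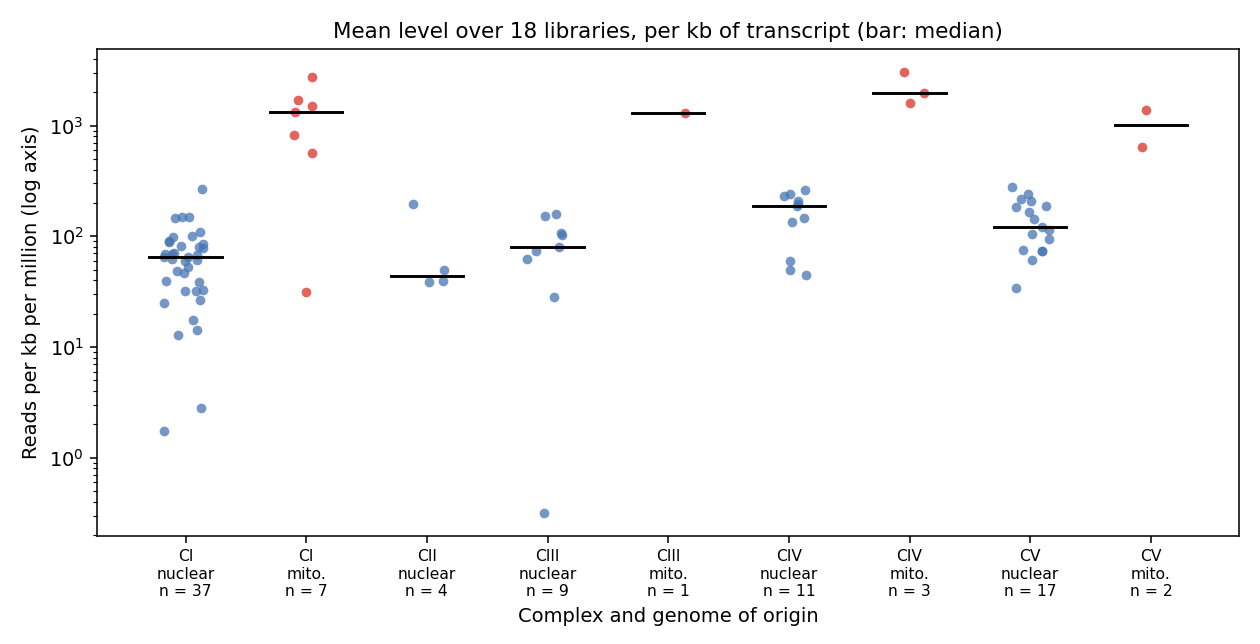
Mean level over 18 libraries in RPKM (log axis) for each tested member, by complex (CI to CV) and genome of origin; each point is a gene and each bar the median of its set. The mitochondrial sets sit above the nuclear sets, with a single low point for MT-ND6 at 31.4.

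The filter on low counts removed 11 nuclear members. Among them are isoforms known from other tissues: COX4I2 from lung, COX6A2 and COX7A1 from heart and muscle, and COX6B2, COX7B2 and COX8C from testis. They had 1, 55, 0, 31, 0 and 3 reads in all 18 libraries together, where 0 reads allow up to 3. The readthrough genes ATP5MF-PTCD1 and NDUFC2-KCTD14 had 21 and 0 reads, and ATP5MGL had 4. NDUFV2, a core subunit of complex I, and NDUFA7 had 56 and 119 reads. Both overlap other annotated genes, NDUFA7 over 33.5% of its exonic bases and NDUFV2 over 28.4%, and the part of the overlap in these low counts was not tested. NDUFB11, with 44.9% of its exonic bases overlapped, had 19718 reads, and the reason for the difference was not tested.

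The clearest pattern in the mitochondrial messages followed the experiment number and not the construct or IL-4. In each of the 6 groups the library of experiment 2 had the highest mitochondrial share of gene counts. That share was 2.33% to 2.66% in the 6 libraries of experiment 2, and 1.14% to 1.66% in 11 of the 12 libraries of experiments 1 and 3. The remaining library, DNMAML with IL-4 in experiment 3, had 0.508%. Experiment 2 stood apart from both others, which overlapped each other, and the ranges of all groups overlapped. In bulk RNA such as this, fewer cells of a type and less RNA per cell cannot be told apart.

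**Figure D2:**
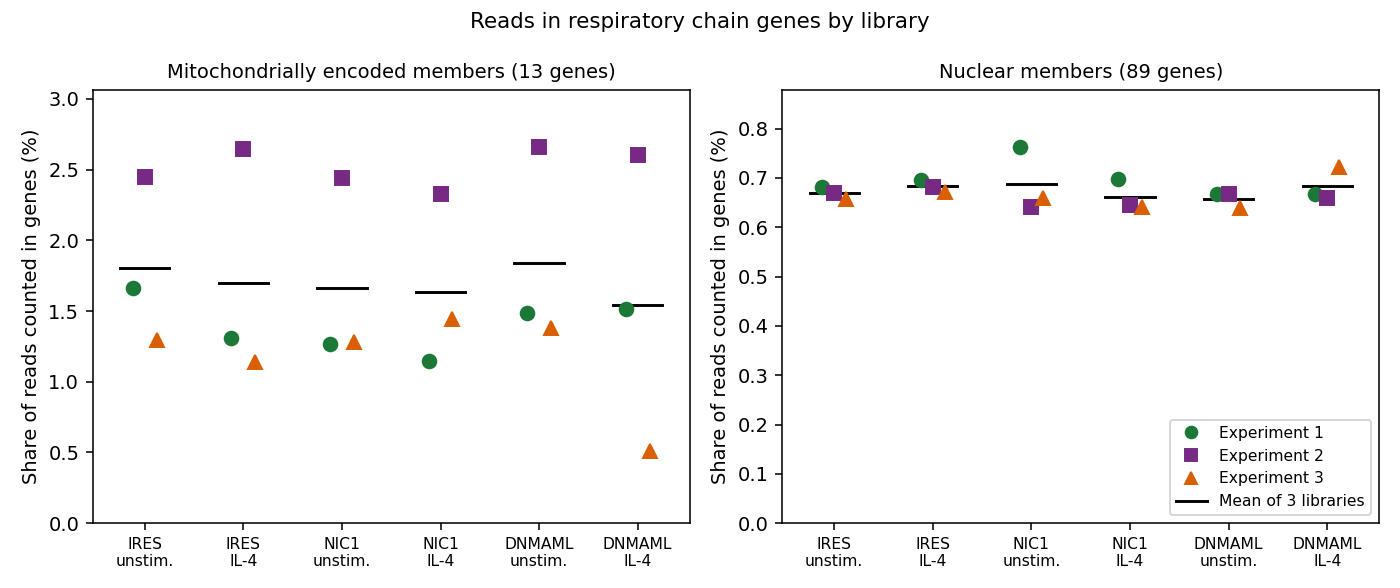
Share of gene counts, in percent, in the 13 mitochondrial members (left) and the 89 nuclear members (right) for each of 18 libraries, by group; symbols are experiments and bars are means of 3 libraries. Experiment 2 is the highest library of every group on the left, at 2.33% to 2.66%, while the nuclear shares lie between 0.638% and 0.764%.

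MT-CO1, the catalytic core of complex IV, shows this gene by gene. Without IL-4 it stood at 2680, 4937 and 1950 CPM in experiments 1, 2 and 3 of IRES, at 1823, 5090 and 2148 in NIC1, and at 2188, 5347 and 2072 in DNMAML. With IL-4 the values were 2160, 5351 and 1776 in IRES, 1819, 4742 and 2307 in NIC1, and 2188, 5055 and 1030 in DNMAML. All 6 libraries of experiment 2 lay above all 12 others, and the ranges of all groups overlapped, with the library at 1030 the lowest of the 18.

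The difference was shared by the mitochondrial members but not in equal measure. Experiment 2 over the mean of the others was 2.53-fold for MT-CO1, 2.49-fold for MT-CO3 and 2.47-fold for MT-ATP6, the proton channel subunit of complex V. MT-ATP8, MT-ND5, MT-ND4, MT-ND1 and MT-ND4L lay between 2.29-fold and 2.06-fold. MT-CYB, the cytochrome b of complex III, was at 1.90-fold, MT-CO2 at 1.62-fold, MT-ND2 at 1.51-fold and MT-ND3 at 1.40-fold. MT-ND6 was at 1.27-fold, reaching at most 22.2 CPM, with experiments that overlapped. In 11 of the 13 genes experiment 2 exceeded both other experiments in 6 of 6 groups, and in MT-ND3 and MT-ND6 in 5.

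Nuclear members did not share it. The log2 difference between experiment 2 and the others had a median of 1.10 for the mitochondrial members (from 0.35 to 1.38) and of 0.05 for the 78 nuclear members (from -0.31 to 0.32). Of the nuclear members 76 lay within 0.25 of 0 and 0 exceeded 0.5, while of all 15037 genes tested 62.6% lay within 0.25 and 8.15% exceeded 0.5. NDUFS8, an iron-sulphur subunit of complex I, was the nuclear member with the largest difference, 0.32, and was higher in experiment 2 in 6 of 6 groups.

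Other genes moved with experiment 2 as well, and their part in the result was not tested. The 84 tested genes for cytosolic ribosomal proteins had a median difference of 0.25, with 80 higher, and the 9 macrophage markers a median of -0.52, with 1 higher. Mitochondrial ribosomal RNA took 0.298% to 0.369% of gene counts in experiment 2 and 0.156% to 0.257% in the others. Mitochondrial-like nuclear pseudogenes held 2.92 to 3.87 counts per 100 in the mitochondrial members, with 2.92 to 3.11 in experiment 2, so their reads rose and fell with those of the members. No test was run between experiments, whose libraries share whatever the number stands for.

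**Figure D3:**
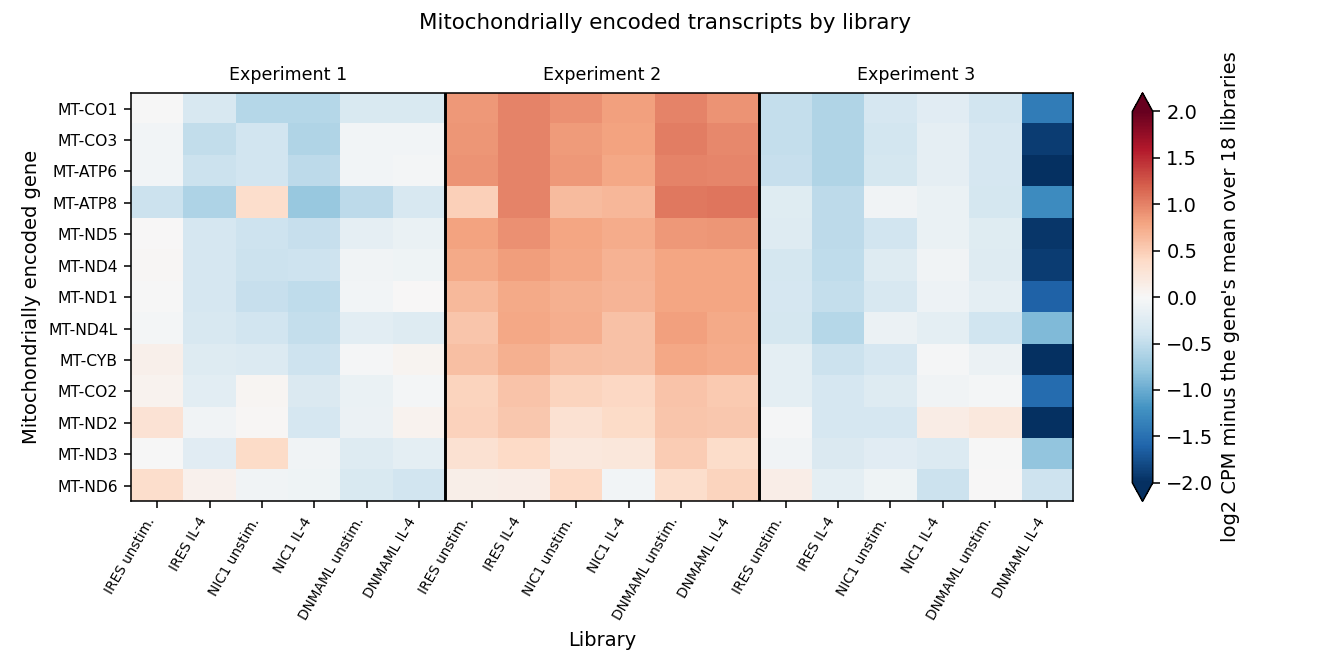
Log2 CPM of each mitochondrial member minus its mean over 18 libraries (colour, capped at 2 in either direction), with genes ordered by their fold in experiment 2 and libraries by experiment. The middle block is above the mean in nearly every cell, and the last column, DNMAML with IL-4 in experiment 3, is the lowest library for every gene but MT-ND6.

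That last library was low in the mitochondrial messages and not in the nuclear ones. Its levels were 0.207 of the mean of the 11 other libraries of experiments 1 and 3 for MT-ND2, 0.262 for MT-CYB, 0.281 for MT-ATP6, 0.490 for MT-CO1, 0.668 for MT-ND4L and 0.790 for MT-ND6. MT-ND2 fell to 163 CPM there, while no other library was below 634. Its nuclear share, 0.723%, was the second highest of the 18. The same library had the most genes with a read (25322) and the largest share of reads counted in no gene (30.9%, against at most 27.7% elsewhere), and their part in the result was not tested.

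The groups overlapped in the balance of both genomes. The log2 ratio of mitochondrial to nuclear member counts was 1.38 ± 0.456 in IRES, 1.21 ± 0.637 in NIC1 and 1.42 ± 0.499 in DNMAML without IL-4 (SD, n = 3). With IL-4 it was 1.21 ± 0.651 in IRES, 1.24 ± 0.572 in NIC1 and 0.885 ± 1.27 in DNMAML, the last being 1.58 without its library of experiment 3. Unstimulated IRES was likewise 1.58 without its library of experiment 3. Each difference between 2 of these means was smaller than the larger of their SDs.

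Within experiments the differences in this ratio varied in sign and size. IL-4 changed it by -0.37, 0.09 and -0.21 in experiments 1, 2 and 3 of IRES, by -0.02, -0.08 and 0.21 in NIC1, and by 0.03, -0.01 and -1.62 in DNMAML. NIC1 differed from IRES by -0.56, 0.06 and -0.02 without IL-4 and by -0.20, -0.11 and 0.41 with it. DNMAML differed from IRES by -0.13, 0.13 and 0.14 without IL-4, and by 0.27, 0.03 and -1.27 with it. NIC1 differed from DNMAML by -0.42, -0.07 and -0.15 without IL-4 and by -0.47, -0.13 and 1.68 with it. Only NIC1 against DNMAML without IL-4 had 1 sign in all 3 experiments, and the values of 1.68, -1.62 and -1.27 all involve the DNMAML library with few mitochondrial reads.

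The tests gave no call for a mitochondrial member in any comparison. In edgeR's quasi-likelihood test on the 6 group means, with Benjamini-Hochberg adjustment over 15037 genes and a threshold of 0.05, 0 of 13 passed for IL-4, for either construct or for a difference between responses. The unadjusted p was under 0.05 for 0 of 13 as well, and 0 passed in DESeq2 or in a fit that takes each experiment as a block. The precision was low: for MT-CO1 the change with IL-4 in IRES was -0.04 on the log2 scale with a range of 2 standard errors from -1.34 to 1.25. For MT-ND6, the least variable, it was -0.19, from -0.64 to 0.25. These ranges come from the fit without the block, and changes of any size inside them remain compatible with that fit. With the block the standard errors were smaller where compared. For DNMAML against IRES without IL-4 they were 0.223 against 0.647 for MT-CO1 and 0.432 against 0.480 for MT-ND2.

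The median over the 13 mitochondrial members after IL-4 was -0.07 in IRES, -0.03 in NIC1 and -0.24 in DNMAML, against -0.0049, -0.01 and -0.0092 over all genes. In DNMAML 0 of 13 members lay above 0, and without its library of experiment 3 with IL-4 13 of 13 did, with a median of 0.18. These fits have no block, so leaving out 1 library makes experiment 2, where these genes were higher, weigh unequally in the groups compared. Within experiments 1, 2 and 3 the medians were 0.03, -0.01 and -1.50 in DNMAML, -0.32, 0.11 and -0.22 in IRES, and -0.13, -0.05 and 0.18 in NIC1. The IRES and NIC1 medians of the fit also turned when single libraries were left out, of experiment 2 or of another. In IRES the median ran from -0.55 without the IL-4 library of experiment 2 to 0.26 without the unstimulated one. It was 0.11 and 0.16 without the IL-4 libraries of experiments 1 and 3. In NIC1 it ran from -0.37 without the IL-4 library of experiment 2 to 0.41 without the unstimulated one. Without the unstimulated IRES library of experiment 3 the IRES median was -0.26.

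IL-4 raised 1 nuclear member. UQCRC1 (ENSG00000010256), which lies on chromosome 3 and encodes a core protein of complex III, rose in the comparison of all 9 libraries with IL-4 against all 9 without, averaged over the constructs. In IRES it went from 178, 213 and 199 CPM in experiments 1, 2 and 3 to 211, 229.7 and 233 with IL-4. In NIC1 it went from 204, 220.1 and 192 to 231, 243 and 221, and in DNMAML from 179.5, 215 and 189 to 211, 238 and 205. The groups did not overlap in NIC1 and overlapped in IRES and DNMAML, and each library with IL-4 exceeded its partner of the same experiment, in 9 of 9 pairs.

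The log2 change of UQCRC1 was 0.18 with a standard error of 0.051 (edgeR adjusted p = 0.0344). Within pairs it lay between 0.11 and 0.25. This was 1 of 91 tested members, in a comparison that called 10.2% of all genes, and with the block it was again the 1 member called, beside 21.8% of all genes. Whether these shares differ was not tested. The call was lost in 7 of the 18 fits that leave out 1 library: the unstimulated libraries of IRES 1, NIC1 3, DNMAML 1 and DNMAML 3, and the IL-4 libraries of IRES 3, NIC1 2 and DNMAML 2. Over the 18 fits the adjusted p ran from 0.0112 to 0.0762 and the log2 change from 0.16 to 0.20. Without the pair of libraries rich in detected genes the change was 0.19 with an adjusted p of 0.0544. By construct, UQCRC1 differed by 0.19 in IRES (adjusted p = 0.450, and 0.0300 with the block), 0.17 in NIC1 (0.572) and 0.16 in DNMAML (0.583).

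**Figure D4:**
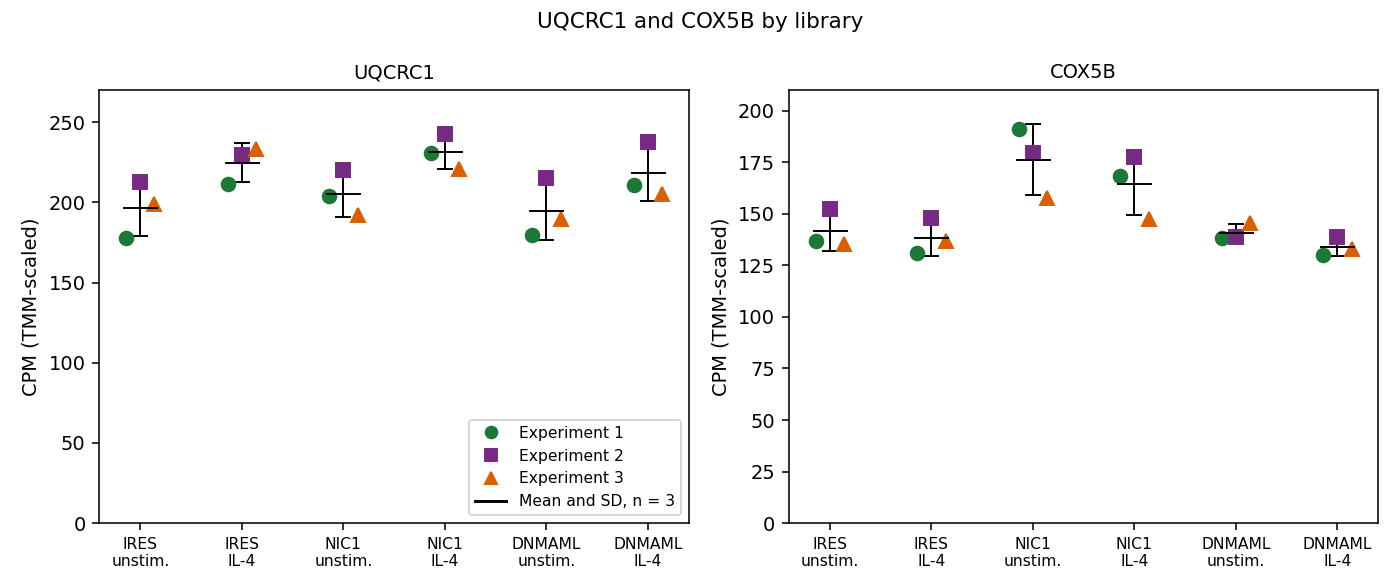
CPM of UQCRC1 (left) and COX5B (right) in each library by group, with symbols for experiments and the mean and SD of 3 libraries. UQCRC1 is higher with IL-4 in every experiment of every construct, and COX5B is higher in both NIC1 groups, at 148 to 191 CPM, than in nearly all libraries of the other groups.

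No other nuclear member was called for IL-4 at 3 h. Averaged over constructs, the median log2 change of all 78 was 0.01 with 45 above 0, beside -0.01 and 46.3% over all genes, and the range ran from -0.10 to 0.18. Without the 2 libraries rich in detected genes 31 of 78 were above 0 (median -0.0080), and without the DNMAML one alone 36 (median -0.01), so the sign of this median rested on that library. By complex the medians were 0.0086 for complex I, 0.02 for complex II, 0.01 for complex III, -0.0090 for complex IV and 0.01 for complex V. NDUFA9, a complex I subunit, came next after UQCRC1 with 0.16 (adjusted p = 0.291). ATP5F1B moved from 500.3, 530.2 and 492 CPM to 524, 534 and 503 in IRES, with groups that overlapped.

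Within each construct 0 of 91 tested members passed for IL-4. All genes were called at 2.93% in IRES, 3.05% in NIC1 and 3.28% in DNMAML. An unadjusted p under 0.05 was reached by UQCRC1 in IRES, by ATP5ME, a complex V subunit, in NIC1 (log2 -0.19, edgeR adjusted p = 0.381) and by 0 members in DNMAML, and DESeq2 called 0 in each. With the block, UQCRC1 passed in IRES beside 9.04% of all genes, and 0 members passed in NIC1 and DNMAML, beside 8.8% and 9.95%. ATP5ME has 61.6% of its exonic bases inside MYL5, and its reads cannot be assigned to either gene with certainty there.

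Complex III also made up more of the nuclear member counts with IL-4 in 8 of 9 pairs. Its share went from 11.4, 11.5 and 11.4 per 100 in experiments 1, 2 and 3 of IRES to 11.7, 11.8 and 11.9. In NIC1 it went from 11.3, 11.6 and 11.2 to 11.8, 11.9 and 11.7. In DNMAML it went from 11.2, 11.3 and 11.2 to 11.7, 11.98 and 11.1, and experiment 3 was the exception. These shares were examined after the UQCRC1 result, of which they are partly made, and no test was run on them.

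Signs of the nuclear members after IL-4 differed between constructs, and single libraries moved each count. In IRES 58 of 78 were above 0 (median 0.03), in DNMAML 58 (median 0.05) and in NIC1 22 (median -0.06). Without the NIC1 unstimulated library of experiment 1, 49 of 78 were above 0 in NIC1 (median 0.02). Without the libraries of experiment 3 rich in detected genes, the count was 42 in IRES (median 0.01) and 43 in DNMAML (median 0.0074). The difference between the NIC1 and IRES responses had a median of -0.09 with 9 of 78 above 0. Without the NIC1 unstimulated library of experiment 1 it was -0.01 with 33 of 78 above 0. Without the 2 libraries rich in detected genes it was -0.06 with 18 of 78 above 0. No member passed the test of a difference between responses (0 of 91 for NIC1 and for DNMAML against IRES in edgeR, in DESeq2 and with the block, 0 at an unadjusted p under 0.05, and 0% of all genes).

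That NIC1 library had the highest nuclear member share of the 18, 0.764% against 0.723% in the next. Its share of reads with more than 1 alignment, 19.2%, was also the highest. Its part in the result was not tested beyond leaving it out.

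NIC1 left the nuclear members near the level of the empty vector, with COX5B as the largest steady difference. COX5B (ENSG00000135940), on chromosome 2, encodes a nuclear subunit of complex IV that sits on its matrix side. Without IL-4 it stood at 137, 152 and 135 CPM in experiments 1, 2 and 3 of IRES, at 191, 179.7 and 157 in NIC1, and at 138, 139 and 146 in DNMAML. With IL-4 it stood at 131, 148 and 137 in IRES, 169, 177 and 148 in NIC1, and 130.0, 139 and 133 in DNMAML. Without IL-4 the NIC1 libraries lay above all libraries of the other constructs. With IL-4 they lay above all DNMAML libraries, while the lowest NIC1 library, 147.7, fell just short of the highest IRES library, 147.8.

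The fit without the block did not call COX5B, and the fit with each experiment as a block did. Against IRES, COX5B differed by 0.32 ± 0.082 (log2, SE) without IL-4 (adjusted p = 0.215, blocked 0.00518) and by 0.25 ± 0.082 with it (0.433, blocked 0.0266). Against DNMAML it differed by 0.32 ± 0.082 without IL-4 (0.0630, blocked 0.00192, DESeq2 0.0138) and by 0.30 ± 0.082 with it (0.104, blocked 0.00386, DESeq2 0.0344). NIC1 was higher in 6 of 6 experiment pairs against IRES, by 0.11 to 0.48, and in 6 of 6 against DNMAML, by 0.11 to 0.47. The largest of each came from experiment 1 without IL-4, where the median over the 78 nuclear members was 0.25 and 0.28. The 2 comparisons share the NIC1 libraries. Between DNMAML and IRES the difference was -0.0071 without IL-4 and -0.05 with it. COX5B has 7 pseudogenes named after it, and reads shared with them may have been counted in neither.

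Other genes differed with NIC1 too, and their part in the COX5B result was not tested. Of 7 T cell markers, which summed to 111 to 231 CPM over the libraries, mostly from CD4, CD3D and CD3G were higher in NIC1: without IL-4 CD3D averaged 32.1 CPM against 5.26 in IRES and 2.31 in DNMAML, and CD3G 3.54 against 0.0963 and 0.0444. CD3E and CD2, which define T cells, were at or near 0 in every group. ITGAM was lower in NIC1 than in DNMAML, by 0.78 without IL-4 (edgeR adjusted p = 0.00309).

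COX5B was not called for IL-4 in any comparison, without or with the block. It was lower with IL-4 in 8 of 9 experiment pairs, by -0.18 to 0.01 on the log2 scale. Its change was -0.03 in IRES, -0.10 in NIC1 and -0.07 in DNMAML (adjusted p = 1.00, 0.927 and 0.961 in edgeR).

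The sequence before the annotated start of COX5B is printed because COX5B alone among the members was called by construct in all 4 blocked comparisons of NIC1, and Notch acts through the DNA-binding protein RBPJ. The stretch is chr2:97645812-97646039 (RefSeq promoter table, GRCh38.p14, plus strand). Capitals mark, in order, a match to the RBPJ motif GTGGGAA on the other strand, to GCATGCGC, the core of the palindrome bound by NRF1, and to CCGGAAGT, a motif of ETS factors such as GABPA. Another match to the ETS motif, from 5 bases before the RefSeq start, lies past the end of the printed stretch.
COX5B: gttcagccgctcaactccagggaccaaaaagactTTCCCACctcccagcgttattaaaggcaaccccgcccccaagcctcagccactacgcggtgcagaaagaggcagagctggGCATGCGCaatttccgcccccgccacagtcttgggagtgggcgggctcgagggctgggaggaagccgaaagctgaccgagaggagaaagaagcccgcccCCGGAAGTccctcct
RBPJ matches were found in 9 of 70 nuclear members with a promoter entry (12.9%) and in 5.87% of 15260 protein-coding promoters of the same length. A match is a description of letters, not a site.

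Nuclear respiratory factors NRF1 and GABPA, YY1 and the ERR receptors are known regulators of this gene set, and their motifs were searched on both strands from 250 bases before to 50 after the start. The core GCATGCGC was in 13 of 70 members (18.6%, against 4.27% of all promoters), and with GC before it, which completes the NRF1 palindrome, in 4 (5.71% against 1.72%). CCGGAAGT was in 10 (14.3% against 6.32%), AAGATGGCG of YY1 in 8 (11.4% against 2.81%) and TGACCTTG of ERR in 4 (5.71% against 1.06%). The motif of STAT6, the factor activated by IL-4 (TTC and GAA with 4 free bases between), was in 2 (2.86% against 5.17%). CCAAT was in 24 (34.3% against 36.7%). The 4 members with the palindrome are printed with it in capitals.
ATP5F1C, chr10:7788145-7788174, plus strand: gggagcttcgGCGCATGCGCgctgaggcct
NDUFA8, chr9:122159764-122159793, minus strand: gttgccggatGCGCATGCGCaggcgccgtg
NDUFB4, chr3:120596167-120596196, plus strand: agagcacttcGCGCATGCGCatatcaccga
SDHD, chr11:112086753-112086782, plus strand: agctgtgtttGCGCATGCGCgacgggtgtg
UQCRC1, the member called for IL-4, held a YY1 motif 23 bases after its start, and no match to the STAT6 motif was found in the window searched. The YY1 motif is in capitals.
UQCRC1, chr3:48609605-48609633, minus strand: ctgcagctggAAGATGGCGgcgtccgtgg

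Among the remaining members, 0 of 91 passed for NIC1 against IRES without IL-4 and 0 of 91 with it, where 0.233% and 0.2% of all genes were called. COX5B and ATP5ME had an unadjusted p under 0.05 without IL-4 and COX5B with it, and DESeq2 called 0 in each. With the block, COX5B was the 1 member called in each, beside 5.37% and 5.44% of all genes. Against DNMAML, 0 of 91 passed in edgeR without IL-4 and 0 with it, beside 1.65% and 1.44% of all genes, with 6 and 3 members at an unadjusted p under 0.05. DESeq2 called COX5B in each, beside 3.17% and 2.73% of all genes. NDUFB6, a complex I subunit, was among those members in both, at 0.31 and 0.33 (edgeR adjusted p = 0.331 in each).

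With the block, 3 members were called higher in NIC1 than in DNMAML without IL-4 (13.8% of all genes): COX5B, ATP5ME (0.24, blocked 0.0352) and ATP5PB, a stalk subunit of complex V (blocked 0.0479). ATP5PB stood at 136, 121 and 117 CPM in NIC1 and at 101, 122 and 104 in DNMAML, so the groups overlapped. With IL-4, COX5B was called higher and ATP5MC2, a c-ring subunit of complex V, lower (-0.18, blocked 0.0258), among 12.6% of all genes. ATP5MC2 stood at 184, 187 and 173 CPM in NIC1 and at 205, 203 and 209 in DNMAML, with no overlap.

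UQCRHL showed the largest difference in size among these comparisons, 0.86 for NIC1 against DNMAML without IL-4 (adjusted p = 0.394 in edgeR), but lay at 0.388 to 1.43 CPM. NDUFA4L2, at 1.23 to 2.70 CPM, differed by 0.31 between NIC1 and IRES without IL-4 (adjusted p = 0.904 in edgeR). Neither passed the test with or without the block.

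As a set, the nuclear members were slightly higher in unstimulated NIC1 cells, and this rested on 1 library. Against IRES without IL-4, 66 of 78 lay above 0 with a median of 0.08, beside -0.00043 over all genes. Without the NIC1 library of experiment 1 the count was 39 of 78. By experiment the medians were 0.25, -0.06 and 0.04, with 73, 24 and 51 of 78 above 0. Against DNMAML, 66 of 78 were above 0 (median 0.11), and 42 (median 0.01) without that library. With IL-4 the NIC1 medians were 0.0041 against IRES and 0.0087 against DNMAML, the latter 0.04 without the libraries rich in detected genes. For the mitochondrial members the NIC1 medians were -0.08 against IRES without IL-4 and 0.10 against DNMAML with it, and -0.30 and -0.30 without those libraries. Leaving those out makes experiment 2 weigh unequally in the groups compared. Within experiments 1, 2 and 3 these medians were -0.35, 0.0024 and 0.02 against IRES, and -0.32, -0.15 and 1.51 against DNMAML.

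**Figure D5:**
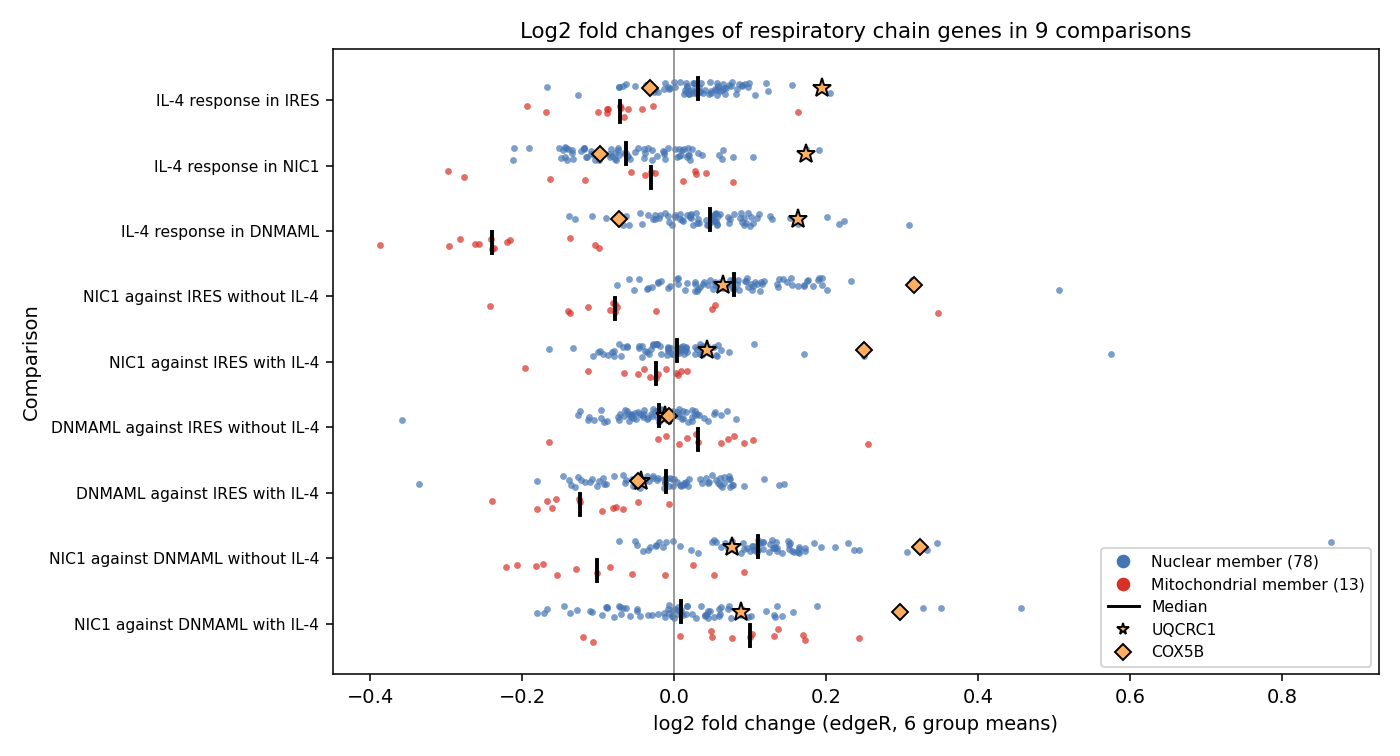
Log2 fold change of the 78 nuclear (blue) and 13 mitochondrial (red) tested members in 9 comparisons, with black bars for the medians, a star for UQCRC1 and a diamond for COX5B. Nuclear medians lie between -0.06 and 0.11, UQCRC1 stands to the right in the 3 comparisons with IL-4, and COX5B in the 4 comparisons of NIC1 with another construct.

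DNMAML against IRES gave no call of a member. None of the 91 members passed without or with IL-4 in edgeR, where 0% and 0% of all genes were called, and 0 passed in DESeq2 or with the block, where 0.146% and 0.0931% of all genes did. Unadjusted p under 0.05 was reached by 0 members and 1 member. The latter was NDUFB6 at -0.34 with a 2-standard-error range from -0.61 to -0.07 (adjusted p = 1.00). The nuclear median was -0.02 without IL-4 (23 of 78 above 0) and -0.01 with it (32 of 78). Without the 2 libraries rich in detected genes the counts were 17 (median -0.04) and 20 (median -0.04). The mitochondrial median with IL-4 was -0.12 with 0 of 13 above 0, and 0.29 with 13 of 13 above 0 without them. Leaving them out makes experiment 2 weigh more in DNMAML with IL-4 than in IRES. Within experiments 1, 2 and 3 this median was 0.19, -0.01 and -1.19, with 12, 4 and 0 of 13 above 0. UQCR11, a small complex III subunit, had the lowest p without IL-4, with a difference of -0.13 (adjusted p = 1 in edgeR).

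Several genes around the chain were called for IL-4. The counts that follow stand beside 10.2% of all genes called in the comparison averaged over constructs, and no list was tested against that share. Of 13 regulators of mitochondrial biogenesis and metabolism, 2 rose and 3 fell. PPARGC1B, the coactivator PGC-1 beta, rose by 1.43 ± 0.080 (log2, SE, edgeR adjusted p = 2.63e-09), from 8.51 ± 0.676 to 22.4 ± 1.95 CPM in IRES, 8.32 ± 0.579 to 23.6 ± 3.45 in NIC1 and 7.39 ± 0.600 to 19.6 ± 3.29 in DNMAML (SD, n = 3). PPARGC1A, its relative PGC-1 alpha, fell by 0.98 (adjusted p = 0.000203), from 2.89 to 1.42 CPM in IRES, a low level. MYC fell by 0.56 (0.0205).

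Among 21 tested genes for mobile carriers and other entry points of electrons, 2 rose and 1 fell. GPD2, the mitochondrial glycerol-3-phosphate dehydrogenase that feeds electrons to ubiquinone, rose by 0.90 ± 0.045 (adjusted p = 8.21e-10). Its mean went from 34.4 to 59.3 CPM in IRES, from 32.5 to 73.0 in NIC1 and from 37.6 to 63.2 in DNMAML. ETFB, a subunit of the electron transfer flavoprotein, rose by 0.25 (0.0299), and COQ8A, a kinase-like protein needed for ubiquinone synthesis, fell by 0.25 (4.42e-05).

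Genes that make or express mitochondrial DNA moved little. Of 33 such genes 1 rose, TWNK, the replicative helicase (0.21, adjusted p = 0.00495), with a list median of 0.07. Of 77 tested genes for the mitochondrial ribosome 2 rose and 0 fell, with a median of 0.05: MRPS6 by 1.66 (9.98e-10), whose gene region overlaps SLC5A3, and MRPL4 by 0.26 (0.000111). Of 48 assembly factors 0 passed, with 5 at an unadjusted p under 0.05 and 3 called with the block, all higher, beside 21.8% of all genes.

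Of 17 genes of the tricarboxylic acid cycle 1 rose, DLAT of the pyruvate dehydrogenase complex (0.19, adjusted p = 0.0134). Of 23 glycolysis genes 5 rose and 1 fell. PFKP, a phosphofructokinase, rose by 0.50 (0.0201) and the glucose transporter gene SLC2A1 by 0.36 (0.0307), while the hexokinase gene HK2 fell by 0.32 (0.0113). The medians of these 2 lists were 0.0090 and 0.01, close to the -0.01 of all genes. The lists overlap in function with the members but share no gene with them.

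By construct, PPARGC1B and GPD2 rose in each of the 3. GPD2 changed by 0.78 in IRES, 1.17 in NIC1 and 0.75 in DNMAML (edgeR adjusted p = 9.40e-06, 1.62e-07 and 1.67e-05), and no gene passed the test of a difference between responses. In the comparisons of NIC1 with IRES or DNMAML, no gene of the lists around the chain passed in the main edgeR test.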

How the data were processed

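Total RNA of 18 THP-1 samples was made into Illumina TruSeq libraries and sequenced, per the labels. The authors deposited read counts per gene for each library, whole and not normalized. Per the submitters' processing notes FastQC, Trimmomatic, HISAT2, HTSeq and DESeq2 were used with GRCh38.p12. The sources used here do not give versions, annotation release, strand setting or the handling of reads in overlapping genes. Rows that name no gene were left out of library sizes: reads counted in no gene, multiply aligned ones included, were 23.8% to 30.9% of those listed.

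From the counts, edgeR 4.0.16 (filterByExpr, TMM, robust quasi-likelihood fit of 6 group means, R 4.3.3) tested 15037 genes, 91 of them members, in 12 contrasts with Benjamini-Hochberg adjustment at 0.05. CPM use TMM-scaled library sizes. RPKM divide by the median length of protein-coding transcripts in GENCODE 29. The mitochondrial to nuclear ratio uses summed raw counts. Symbols were found for 56948 of 58051 gene identifiers. Promoters came from RefSeq, with an entry for 70 of 89 nuclear members. Members, lists, motifs and tests were chosen with earlier results of these data known. Named genes were every mitochondrial member, each member called without or with the block (at most 10 of the latter), the highest and lowest RPKM of each complex, tissue-restricted isoforms, the lowest p where nothing was called, and the 3 largest changes among called genes of each list. Members at an unadjusted p under 0.05, NDUFS8, NDUFA9 and ATP5F1B were named after their values were seen.

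Experiment numbers paired the libraries: deviations from group means correlated at 0.206 to 0.759 in all 45 same-number pairs. In 90 others they correlated at -0.654 to 0.354, with a median of -0.395, so the ranges overlapped. Deviations sum to 0 within a group, which by itself lowers the values of the 90. A fit with the experiment as a block (blocked p) and the alternatives of DESeq2 1.42.0, other scaling and filters, and left-out libraries were run. The scripts were tested on simulated counts. Depth was 12410668 to 15099788 gene reads a library, and precision was set mainly by 3 libraries a group.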

Additional observations from a re-analysis of the deposited data

How the results depend on the processing

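With the experiment number as a block, members called went from 0 to 1 for IL-4 in IRES, from 0 to 1 for NIC1 against IRES without and with IL-4, and from 0 to 3 and 0 to 2 for NIC1 against DNMAML without and with IL-4; the pairing by block changed no other call of a member. Calls over all genes went with the block from 441 to 1360, 458 to 1323 and 493 to 1496 for IL-4 in IRES, NIC1 and DNMAML, and from 1537 to 3284 averaged. For the constructs without and with IL-4 they went from 35 to 808 and 30 to 818 (NIC1 against IRES), 248 to 2082 and 216 to 1893 (NIC1 against DNMAML), and 0 to 22 and 0 to 14 (DNMAML against IRES). A fit of only the groups compared called 191 and 259 genes for IL-4 in IRES and DNMAML, 0 and 0 for NIC1 against IRES, and 60 and 54 for NIC1 against DNMAML. Without the 2 libraries rich in detected genes, IL-4 called 286 genes in IRES and 296 in DNMAML, NIC1 against IRES called 0 and 11, and NIC1 against DNMAML with IL-4 called 71. For NIC1 against IRES, DESeq2 called 91 and 108 genes and an unfiltered fit 77 and 73; for DNMAML against IRES both called 2 and 1. DESeq2 called 1 member (COX5B) for NIC1 against DNMAML in each condition, among 476 and 410 genes. The single call of the averaged IL-4 comparison went to 0 when those 2 libraries were left out, and was 0 to 1 over 18 single left-out libraries. NIC1 against DNMAML without IL-4 gave 0 to 1 over left-out libraries, the 1 being COX5B without NIC1 replicate 3. The difference between the DNMAML and IRES responses in the mitochondrial to nuclear log2 ratio, -0.37, became 0.53 without those libraries. Unstimulated IRES and DNMAML with IL-4 then lack experiment 3, so experiment 2, with its high ratio, weighs more in them than in their partners. Within experiments 1 and 2 the ratio changed with IL-4 by 0.03 and -0.01 in DNMAML and by -0.37 and 0.09 in IRES. Any further cause of the change was not tested. Other scalings, low-count filters, group subsets and the removal of mitochondrial genes from the scaling left every count of called members as it was.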
